A study of Mus musculus with 8 samples.

Results

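The genes described here encode the contractile apparatus of smooth muscle. They are the actins Acta2 and Actg2, the myosin genes Myh11 and Myl9, the myosin light chain kinase Mylk, the actin-binding proteins Tagln, Cnn1 and Cald1, and the tropomyosins Tpm1 and Tpm2. The 10 genes were listed by name, and every array probe assigned to a RefSeq transcript of a listed gene was taken. This gave 16 of 55681 probes and 10 of the 20145 genes that could be named. Of the 10 genes, 9 were bright enough to be tested, and Myh11 was not.

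The cells came from mouse embryonic stem cells of the iRUNX1 system, labelled C57BL/6, in which doxycycline switches on a Runx1 transgene through a Tet-on promoter. Embryoid bodies grew for 3.25 days, Flk-1+ cells were sorted from them and sorted once more after culture, and the cells then spent 2 days in medium for hemogenic endothelium, the endothelium that gives rise to blood cells. The DOX+ group had doxycycline overnight (0.3 µl/ml, in the unit of the labels) and the DOX- group carried the same transgene without it, with 3 biological replicates each. A further DOX+ and a further DOX- array are titled technical repeats, without a statement of which RNA they repeat, and stayed out of the tests. The labels do not name the Runx1 isoform or say how many clones of the line were used. Nothing in them says that a numbered DOX+ and DOX- sample share a culture.

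In smooth muscle, myosin pulls on actin filaments after the kinase MLCK, bound to calcium and calmodulin, phosphorylates the myosin regulatory light chain. Tropomyosin, calponin and caldesmon sit on the actin filament and modulate this step. Many of these genes are driven by serum response factor (SRF), which binds CArG boxes in their promoters together with myocardin or related coactivators. Several of them are also active outside smooth muscle, in endothelial, mesenchymal and other adherent cells, and their transcripts do not by themselves name a cell type.

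The promoters of Acta2, Myl9 and Tpm1 are shown because CArG boxes link such genes to SRF and because Acta2 and Tpm1 had the clearest differences below. Each line gives the 250 bases before a transcription start listed for the gene in a RefSeq promoter table (GRCm38.p6), 5′ to 3′ on the gene's strand, from chr19:34255374-34255623 (minus strand) for Acta2, chr2:156775214-156775463 (plus strand) for Myl9 and chr9:67049214-67049463 (minus strand) for Tpm1. The listed starts are not the outermost ends of the RefSeq gene spans: the Tpm1 window lies inside the span of its gene, and those of Acta2 and Myl9 lie partly inside. Capitals mark CArG boxes with at most 1 G or C in the core, and in Tpm1 a match to TGCGGT, a form of the RUNX motif.
Acta2: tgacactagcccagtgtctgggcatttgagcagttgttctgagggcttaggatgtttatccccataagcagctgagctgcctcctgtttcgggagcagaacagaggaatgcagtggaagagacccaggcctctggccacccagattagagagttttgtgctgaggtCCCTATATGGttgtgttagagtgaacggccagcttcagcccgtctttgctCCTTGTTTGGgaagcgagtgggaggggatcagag
Myl9: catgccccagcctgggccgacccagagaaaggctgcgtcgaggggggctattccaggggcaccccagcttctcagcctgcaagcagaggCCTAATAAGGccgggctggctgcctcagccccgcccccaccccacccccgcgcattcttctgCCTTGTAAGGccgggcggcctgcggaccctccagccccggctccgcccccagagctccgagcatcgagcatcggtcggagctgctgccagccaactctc
Tpm1: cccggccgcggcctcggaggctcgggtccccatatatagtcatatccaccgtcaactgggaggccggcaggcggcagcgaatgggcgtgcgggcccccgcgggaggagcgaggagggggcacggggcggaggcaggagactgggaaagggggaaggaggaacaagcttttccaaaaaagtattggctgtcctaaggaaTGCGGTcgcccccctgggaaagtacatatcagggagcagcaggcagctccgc

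RefSeq promoter windows matched 7 of the 10 genes, in 8 windows. Actg2, Myh11 and Tagln had none there. Acta2 and Myl9 each held 2 CArG boxes when 1 G or C was allowed in the core, at positions -84 and -34 for Acta2 and -161 and -99 for Myl9, counted back from the listed start to the first base of the box. Such boxes were present in 2 of 8 windows of these genes and in 8.59% of all 32851 windows of that length. The strict CArG box, a subset of these, was found in 1 of the 8 windows, that of Myl9, and in 1.47% of all. The RUNX motifs were searched as TGTGGT and TGCGGT on both strands, and neither overlaps the other or a CArG box. TGTGGT was present only in the Mylk window among the 8, at 2 places, and in 14% of all windows. TGCGGT was present only in the Tpm1 window among the 8, and in 5.1% of all windows.

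Signals below are log2 processed spot signals relative to the 75th percentile of their array, so a level is comparable between arrays for the same probe and not between probes. A change is the DOX+ mean minus the DOX- mean on that scale. The 75th percentile was 543 to 973 processed units on DOX+ arrays and 338 to 699 on DOX- arrays, higher on the DOX+ array of every replicate by 0.60 ± 0.11 on the log2 scale (SD, n = 3). Relative to the E1A spike-in control probes of brightness ranks 2 to 5 the shift was 1.29 ± 0.56 (SD, n = 3), and 0.14 between the technical repeats. Changes are thus relative to an array's overall signal, and statements on direction hold for that scale. Spots well above background made up 55.6% to 70.4% of an array, and none was saturated. Groups were taken from the titles of the scanner files' samples, although 6 of 8 columns of a deposited table of processed values tracked the array of another title. That table was not used for any value here. Runx1 itself read -5.60 ± 0.60 in DOX+ and -4.57 ± 0.25 in DOX- cells (SD, n = 3) at its brighter probe. That probe was well above background on 2 of 3 DOX+ and 3 of 3 DOX- arrays, so its DOX+ level lies near the detection limit. The other Runx1 probe was well above background on none of them. Limma gave an adjusted p of 0.126. It was 0.0214, lower in DOX+, when the replicate number was added to the fit as a block. The sources used here do not say whether that probe can see the transgene.

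None of the 9 contractile genes tested passed an adjusted p of 0.05 in limma, against 6.31% of all 14504 genes, of which 4.14% were higher and 2.16% lower in DOX+. At an unadjusted p under 0.05 there were 2, Acta2 and Tpm1. When the replicate number was added to the fit as a block, 3 of the 9 passed, with Tpm1 higher and Acta2 and Cald1 lower in DOX+ cells. In that fit 16.2% of all genes passed, 9.37% higher and 6.81% lower. The count of 3 fell to 0 when replicate 1 or 2 was left out of the blocked fit, and to 1 (Tpm1) without replicate 3. In 3 of the 9, Acta2, Cald1 and Tpm1, the DOX+ and DOX- values did not overlap, as in 28.3% of all genes. In 6 of the 9 the direction was the same for all 3 replicate numbers, as in 59.5% of all genes. The median change of the 9 genes was -0.21 and that of all genes 0.09. Scaled to the spike-in probes instead, all 9 changes were above 0, with a median of 1.08 against 1.38 for all genes, and with the block 7 of the 9 and 12808 of all genes passed. Signals come from bulk RNA, in which fewer cells of a type and less RNA per cell cannot be told apart.

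**Figure D1:**
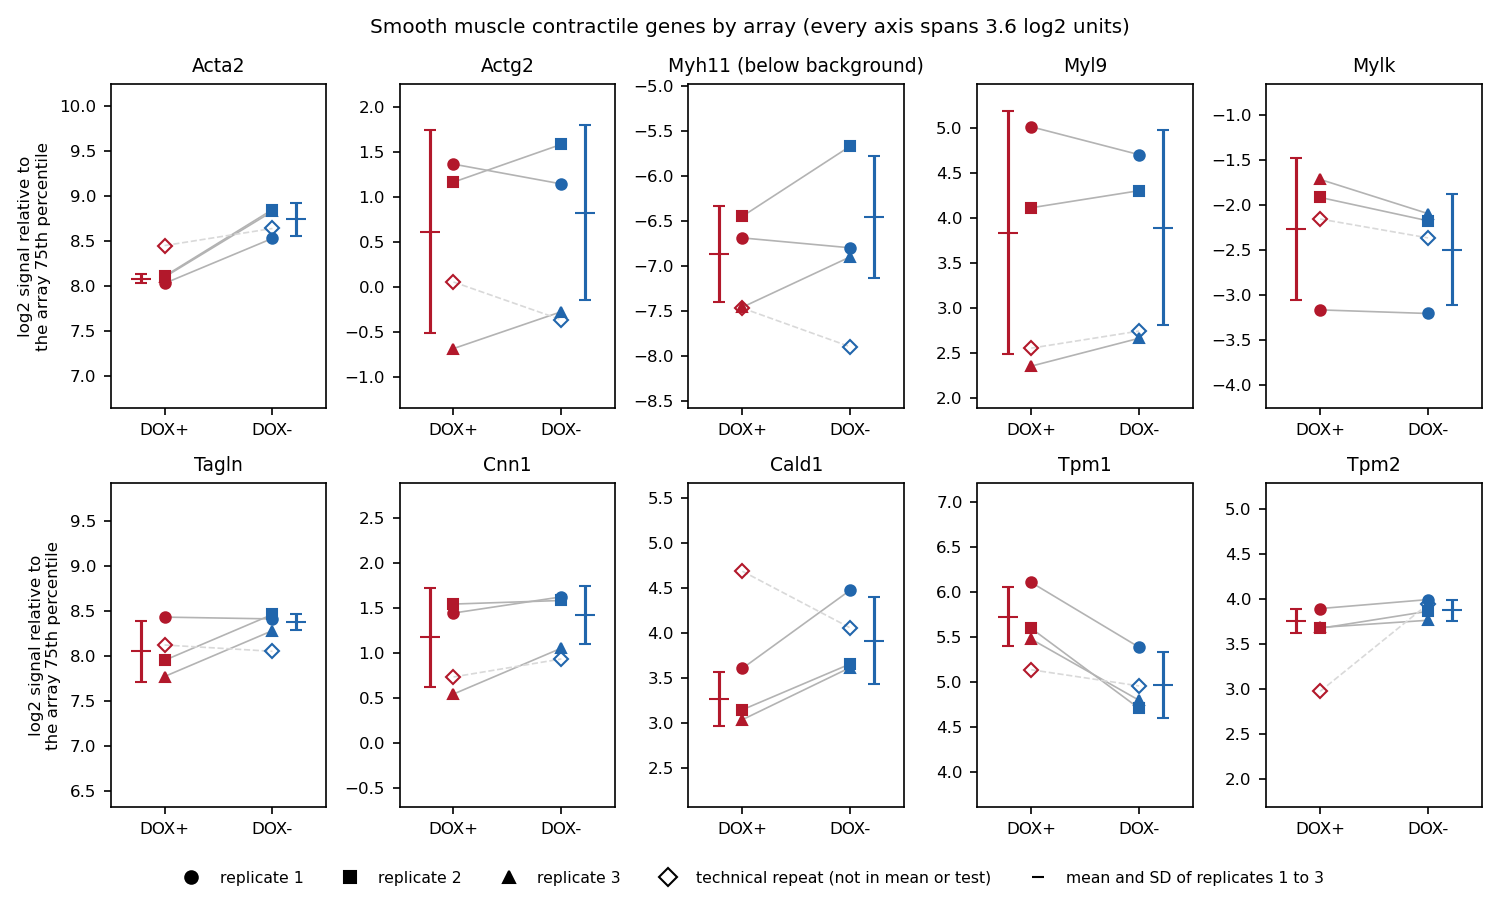
Log2 signal relative to the array 75th percentile (vertical axis) of each contractile gene on every array, DOX+ in red and DOX- in blue, with lines joining the same replicate number and bars for the mean and SD of 3 replicates. Acta2 and Cald1 lie lower and Tpm1 higher in DOX+ with no overlap, while for Actg2, Myl9 and Mylk the replicates lie further apart than the groups. Myh11 was not well above background on any array.

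Acta2, the actin isoform of vascular smooth muscle and of myofibroblasts, was measured by 1 probe printed in 10 spots. Its level was 8.03, 8.11 and 8.10 in DOX+ replicates 1, 2 and 3, and 8.53, 8.85 and 8.83 in the DOX- ones. All 3 DOX+ values lay below all 3 DOX- values. The change was -0.65 (SE 0.15), or 0.64 times the DOX- level. Limma gave it an adjusted p of 0.0542, and of 0.0267 when the replicate block was added. Adjusted over all probes, of which 8.83% passed with the block, the blocked fit gave 0.0517, which did not pass. The blocked call was lost with median centring (-0.50, adjusted p = 0.0888), and under spike-in scaling the sign turned (0.64, adjusted p = 0.450 without the block and 0.120 with it). On the technical repeats Acta2 read 8.45 in DOX+ and 8.64 in DOX-.

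The Acta2 signal lay in the range of the brightest spike-in probes. Before any scaling the DOX+ and DOX- signals of a replicate were nearly equal. They differed by -0.03, -0.08 and -0.04 on the log2 scale in replicates 1, 2 and 3. The change of -0.65 appears when the 75th percentile is subtracted, which was higher on DOX+ arrays by 0.60 ± 0.11 (SD, n = 3). That is a step of the arithmetic and names no cause. The log2 signal was 17.19 to 17.98 on the 6 arrays, with a coefficient of variation over the 10 spots of 1.8% to 4.4%. The brightest E1A spike-in probe, at 18.55 to 18.85, varied by 0.30 over these arrays, whereas the next probe, at 16.75 to 17.94, varied by 1.20 and the third by 1.64. Spike-in signals thus moved less at the bright end. The part of this in the Acta2 value was not tested.

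**Figure D2:**
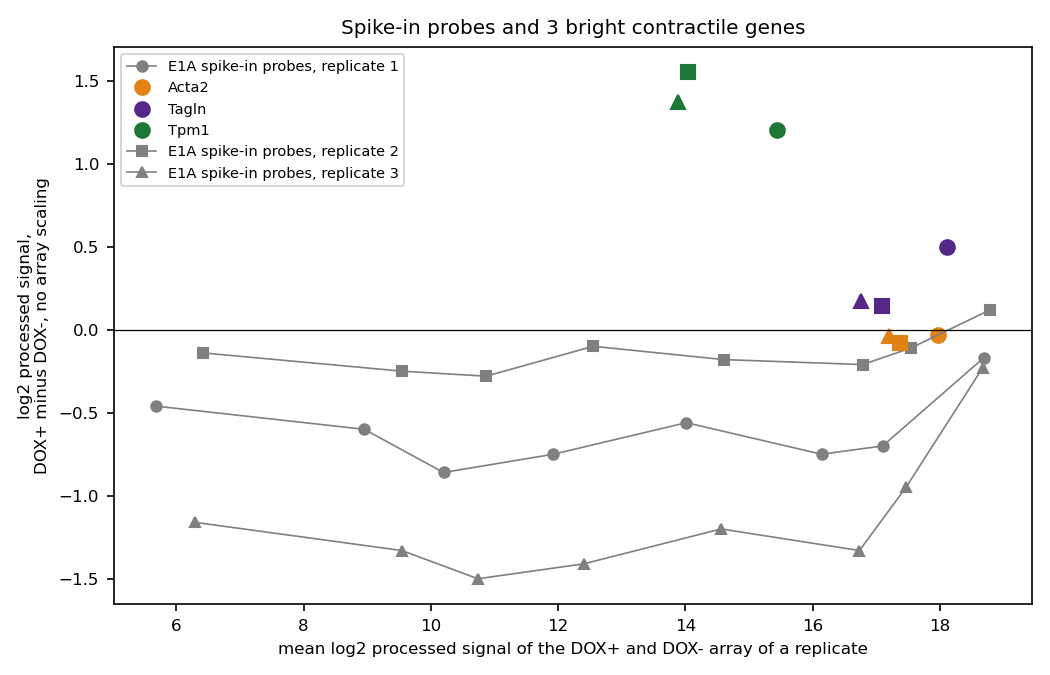
Unscaled log2 difference between the DOX+ and the DOX- array of a replicate (vertical axis) against the mean log2 signal of both arrays (horizontal axis), for the 8 brightest E1A spike-in probes (grey, joined by replicate) and for Acta2, Tagln and Tpm1. In replicates 1 and 3 the differences of the brightest spike-in probe are -0.17 and -0.23, against -0.75 and -1.33 for the third brightest.

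Actg2, the actin isoform of visceral smooth muscle, had levels of 1.37, 1.17 and -0.68 in DOX+ replicates 1, 2 and 3, and 1.15, 1.59 and -0.27 in the DOX- ones. Replicate 3 was low in both groups and the groups overlapped. The change was -0.21 (SE 0.68, adjusted p = 0.878 in limma, and 0.428 with the replicate block). Its 95% interval ran from -1.83 to 1.42 without the block and from -0.65 to 0.24 with it.

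Myl9, the regulatory light chain of smooth muscle and non-muscle myosin, varied most between replicates. Its levels were 5.01, 4.11 and 2.35 in DOX+ replicates 1, 2 and 3, and 4.70, 4.30 and 2.66 in the DOX- ones. Replicate 1 was highest and replicate 3 lowest in both groups. The means over both groups of a replicate spanned 2.35 log2 units, a span reached by 139 genes, or 0.958% of those tested. The change with doxycycline was -0.06 (SE 0.78, adjusted p = 0.969), with a 95% interval from -0.48 to 0.36 in the blocked fit.

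Mylk, which encodes the kinase that activates smooth muscle myosin, was well above background on all 6 arrays. It read -3.17, -1.92 and -1.72 in DOX+ replicates 1, 2 and 3, and -3.21, -2.18 and -2.10 in the DOX- ones. Here replicate 1 was the lowest in both groups, the opposite order to Myl9. The change was 0.23 (SE 0.47, adjusted p = 0.794 in limma). Myh11, the heavy chain that is among the most specific markers of mature smooth muscle, had 1 probe, whose spot on none of the 6 replicate arrays was well above background. It read -6.87 ± 0.53 in DOX+ and -6.46 ± 0.68 in DOX- cells (SD, n = 3), and no fold is given.

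Tagln, the actin-binding protein transgelin or SM22, read 8.43, 7.95 and 7.77 in DOX+ replicates 1, 2 and 3, and 8.41, 8.46 and 8.28 in the DOX- ones. Replicate 1 was the same in both groups to within 0.02, and the other two were lower in DOX+ by 0.51 and 0.52. The change was -0.33 (SE 0.20, adjusted p = 0.380 in limma). Its log2 signal ran from 16.69 to 18.36 over the 6 arrays. The highest value lay between the brightest spike-in probe (18.55 to 18.85, varying by 0.30) and the next (16.75 to 17.94, varying by 1.20).

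Cnn1, the calponin of smooth muscle, read 1.44, 1.54 and 0.54 in DOX+ replicates 1, 2 and 3, and 1.62, 1.58 and 1.05 in the DOX- ones. Each DOX+ value lay below the DOX- value of its number, by 0.05 to 0.51, and the groups overlapped. The change of -0.25 (SE 0.31) had an adjusted p of 0.666 in limma.

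Cald1, which encodes caldesmon, was read by 2 probes of the same transcript. The brighter probe gave 3.61, 3.15 and 3.04 in DOX+ replicates 1, 2 and 3, and 4.48, 3.66 and 3.62 in the DOX- ones, so its groups fell just short of overlapping. The change was -0.65 (SE 0.28). Limma's adjusted p was 0.248, and 0.0335 once the replicate block was added. The other probe changed by -0.68 (SE 0.34), and its groups overlapped. Among all probes, 8.83% passed with the block, and neither Cald1 probe did (adjusted p = 0.0615 and 0.0806). The blocked call was lost with median centring (-0.49, adjusted p = 0.109), and the sign turned under spike-in scaling (0.64). Unscaled, the DOX+ minus DOX- difference of the brighter probe was -0.39, 0.15 and 0.11 in replicates 1, 2 and 3. Its mean was -0.05. On the technical repeats the brighter probe read 4.69 in DOX+ and 4.06 in DOX-, the opposite direction to the 3 replicates.

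Tpm1, a tropomyosin gene whose alternative promoters and exons give muscle and non-muscle forms, was the contractile gene with the largest positive change. Its brightest probe, A_55_P2032192, read 6.11, 5.60 and 5.48 in DOX+ replicates 1, 2 and 3, and 5.39, 4.71 and 4.80 in the DOX- ones. All DOX+ values lay above all DOX- values. The change was 0.77 (SE 0.26), or 1.70-fold. Limma's adjusted p was 0.150, and 0.0165 once the replicate block was added. It stayed positive in each alternative run, between 0.58 and 2.06. On the technical repeats this probe read 5.14 in DOX+ and 4.96 in DOX-, a difference of 0.17.

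The 5 Tpm1 probes, designed against different RefSeq transcripts, did not change alike. Probes A_55_P2187038 and A_55_P2187043, both for NM_001164248, had the largest differences. The first read 4.37, 3.54 and 3.05 in DOX+ replicates 1, 2 and 3, against 2.35, 2.13 and 1.88 in the DOX- ones, a change of 1.54 (SE 0.34), or 2.91-fold. The other changed by 1.56 (SE 0.35). Adjusted over all 32811 probes, p was 0.0664 and 0.0654 in limma, where 3.65% of probes passed, and 0.0161 and 0.0131 with the replicate block. Both passed without a block under median centring (adjusted p = 0.0353 and 0.0355), and with the block they did not pass when replicate 1 or 2 was left out. In the technical repeats they differed by 1.52 and 1.55 in the same direction.

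Probe A_55_P2078680, for NM_001164251, changed by 0.75 (SE 0.21, adjusted p = 0.122 in limma and 0.0641 with the replicate block), and passed under median centring (adjusted p = 0.0481). In the technical repeats it was lower in DOX+, by -0.26. Probe A_55_P2187053, for NM_001164255, read 1.54, 1.18 and 1.07 in DOX+ replicates 1, 2 and 3, and 1.34, 1.24 and 1.37 in the DOX- ones. It changed by -0.05 (SE 0.18, adjusted p = 0.897 in limma), and the groups overlapped. The exons in which the probes lie are not stated in the sources used here.

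The difference between 2 probes on the same array is not moved by percentile, median or spike-in scaling, which subtract 1 value per array. Quantile normalization and normexp can move it. The changes of A_55_P2187038 and A_55_P2187053 were 1.43 and -0.12 with quantile normalization, and 1.47 and -0.08 with normexp. The change of A_55_P2187038 exceeded that of A_55_P2187053 by 1.59 ± 0.21 (SD, n = 3 replicate numbers), by 1.83, 1.46 and 1.47 in replicates 1, 2 and 3 and by 1.00 on the technical repeats. It exceeded the change of the brightest probe by 0.77 ± 0.47. Of the 10 pairs of Tpm1 probes, 8 had an exact two-sided permutation p of 0.1, the smallest that 3 against 3 arrays allow, and 0.125 after adjustment over the 10 pairs. The 2 exceptions were the pair for NM_001164248, which differed by 0.03 ± 0.06, and A_55_P2032192 against A_55_P2078680, which differed by 0.01 ± 0.33 (SD, n = 3 each). A p of 0.1 here means only that the DOX+ and DOX- values of a probe difference did not overlap. Among single genes, 28.3% had groups that did not overlap. The share of probe pairs of other genes with such a p was not determined. The pairs share probes and are not independent, and the permutation did not use the replicate numbers. The 8 pairs therefore do not set Tpm1 apart from other genes. This comparison of Tpm1 probes was chosen after the values had been seen. The technical repeats turned the direction between A_55_P2078680 and A_55_P2187053 (-0.79, against 0.81 ± 0.08 in the replicates). They also turned it between A_55_P2032192 and A_55_P2187053 (-0.35, against 0.82 ± 0.25).

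The changes of the Tpm1 probes spanned 1.62 log2 units. Among the 24 genes with at least 5 probes above the filter the median span was 0.55, and 2 of them reached 1.62 or more, Tpm1 included. Among the 3709 genes with at least 2 such probes, 58 did, or 1.56%. A span grows with the number of probes, and the median span among these genes was 0.26. That share is therefore not like for like with the 5 probes of Tpm1.

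**Figure D3:**
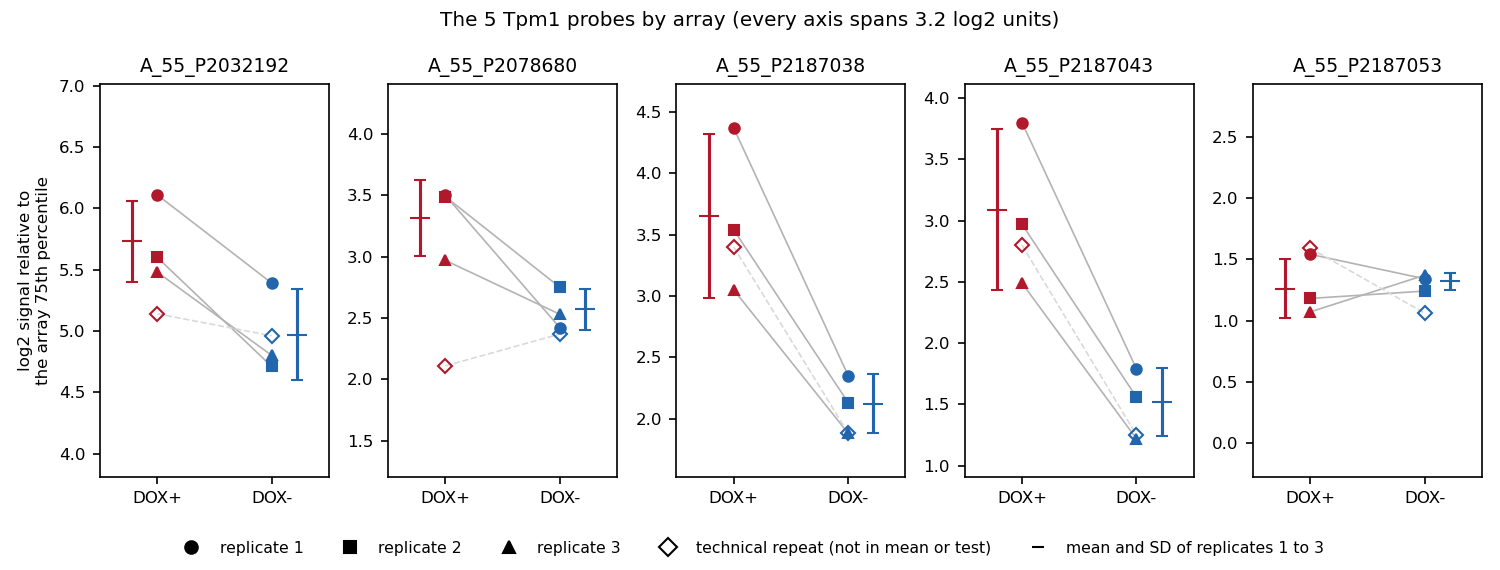
Log2 signal relative to the array 75th percentile (vertical axis) of the 5 Tpm1 probes on every array, DOX+ in red and DOX- in blue, with the same marks as in the plot of all contractile genes. The pair of probes for NM_001164248 changes by 1.54 and 1.56, and A_55_P2187053 by -0.05.

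Tpm2, a second tropomyosin gene active in smooth and slow skeletal muscle, did not follow Tpm1. Its brighter probe read 3.89, 3.67 and 3.68 in DOX+ replicates 1, 2 and 3, and 3.99, 3.86 and 3.76 in the DOX- ones. The change was -0.12 (SE 0.15, adjusted p = 0.647 in limma), with a 95% interval from -0.47 to 0.23. The other probe changed by -0.06 (SE 0.23). On the technical repeats the brighter probe read 2.97 in DOX+ and 3.94 in DOX-, and the other 3.43 and 3.46, so the DOX+ value of the brighter probe there lay below the other readings of that probe, which were 3.67 to 3.99.

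**Figure D4:**
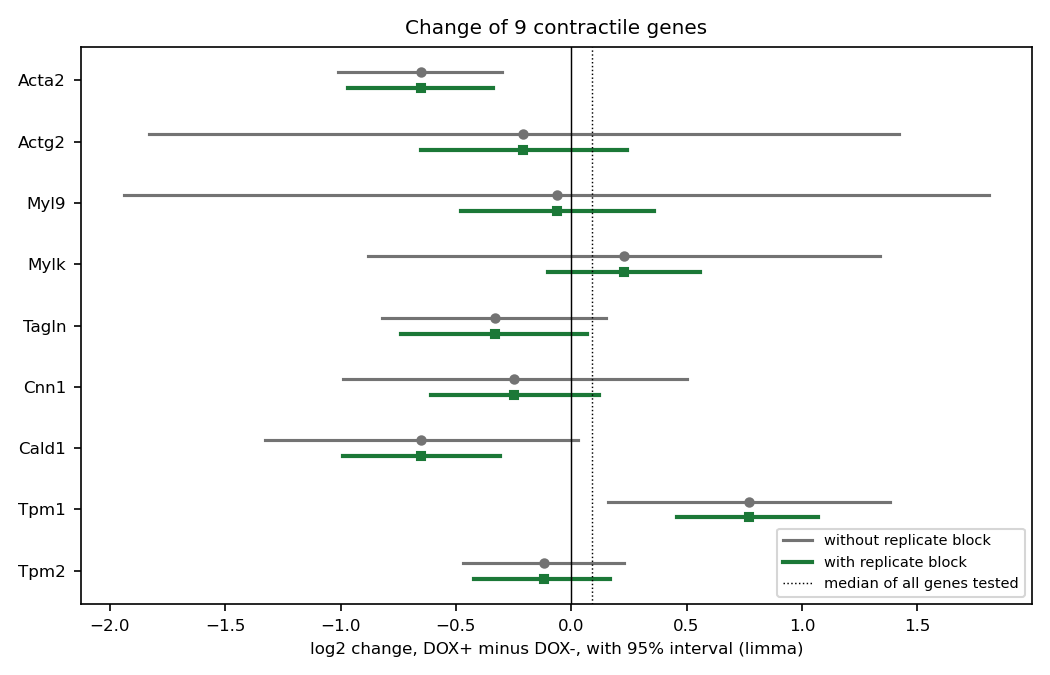
Log2 change, DOX+ minus DOX-, with 95% intervals from limma (horizontal axis), for the 9 contractile genes tested (vertical axis), without (grey) and with (green) the replicate block. The blocked intervals of Acta2 (-0.97 to -0.34), Cald1 (-0.99 to -0.31) and Tpm1 (0.46 to 1.07) lie to one side of 0, and intervals are not adjusted for the number of genes.

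Replicates often spanned more than the change with doxycycline, although a span over 3 means and a difference of 2 means are unlike measures. The means over both groups of a replicate spanned a median of 0.71 log2 units for the 9 contractile genes, against 0.40 for all genes tested, while their median absolute change with doxycycline was 0.25. Actg2 spanned 1.86, Mylk 1.28 and Cnn1 0.77, but Acta2 only 0.20. The technical repeats read 2.55 in DOX+ and 2.74 in DOX- for Myl9, near replicate 3. Per the file headers all 8 arrays were on 1 slide scanned once, with replicates 1 and 2 in its first row and replicate 3 and the technical repeats in its second, so a difference of replicate 3 from the others cannot be told apart from the row of the slide.

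Over the 6 arrays Actg2, Myl9 and Cnn1 varied together, with Pearson's r of 0.94 between Actg2 and Myl9, 0.94 between Actg2 and Cnn1 and 0.89 between Myl9 and Cnn1. Mylk ran against most of the others, with r of -0.80 against the mean profile of the other 8, and Acta2 and Tpm1 stood apart from that profile (-0.01 and -0.05). These values are descriptions over 6 arrays that share the group difference and the slide. The genes outside the list whose levels were most like the mean profile of the 9 were Vps13a, Nudcd1, Zkscan3, Cnksr2 and Syt13, with r from 0.979 to 0.990 among 13474 genes ranked. Their changes with doxycycline lay between -0.30 and -0.07, and none passed in limma (adjusted p = 0.655 to 0.897).

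Relatives of these genes in the general cytoskeleton lay on both sides of 0. All 13 of a list of non-muscle actins, tropomyosins, calponins and myosin subunits were tested, 0 passed in limma, and the median change was -0.01, with single changes from -0.45 to 0.52. The brightest were Actb, at 9.28 ± 0.25 in DOX+ and 9.73 ± 0.44 in DOX- (-0.45, SE 0.26, adjusted p = 0.360), and Actg1, with a change of -0.42 (SE 0.27, adjusted p = 0.405). With the replicate block 1 of the 13 passed, Cnn2, higher by 0.52 (adjusted p = 0.0446).

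Of 22 further smooth muscle proteins 16 were tested, and 0 rose and 1 fell. Itga8, the integrin subunit abundant in smooth muscle and mesenchyme, fell to -1.82 ± 0.15 in DOX+ cells, against -0.01 ± 0.28 in DOX- cells (SD, n = 3), with a log2 difference of -1.81 (SE 0.19, limma adjusted p = 0.00419). Under spike-in scaling the difference was -0.52 and did not pass (adjusted p = 0.535, and 0.203 with the replicate block). The brightest that did not pass, Csrp1 and Vim, had changes of 0.00 (SE 0.15) and -0.14 (SE 0.18). The replicate block gave 3 that fell, with Pdlim3 and Ppp1r14a added. Lmod1, Synpo2, Pln, Casq2, Aoc3 and Mustn1 did not pass the brightness filter.

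All 16 regulators around SRF and myocardin were tested, and 0 rose and 2 fell. Klf4, a factor that represses smooth muscle genes, fell to 0.00 ± 0.15 in DOX+, against 1.34 ± 0.15 in DOX- (-1.35, SE 0.16, adjusted p = 0.00603 in limma). Under spike-in scaling its change was -0.06 (adjusted p = 0.947, and 0.892 with the replicate block). Tbx18, a factor of mural cell precursors, was dim and changed by -1.18 (SE 0.22, adjusted p = 0.0273), by 0.11 under spike-in scaling and by -0.29 with normexp background correction (adjusted p = 0.242). Its call was also lost with quantile normalization (adjusted p = 0.0735), with median centring (0.0660), without the brightness filter (0.0620) and in 5 of 6 fits with an array left out, all but that without DOX- replicate 2. The brightest others were Elk1 (-0.34, SE 0.21, adjusted p = 0.389) and Csrp2 (0.35, SE 0.20, adjusted p = 0.343). Srf changed by 0.32 (SE 0.29, adjusted p = 0.535) and Myocd by -0.63 (SE 0.34, adjusted p = 0.331, and 0.0287 with the replicate block). These last were named after their values had been seen, because they are the factors introduced above.

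Of 16 genes that control contraction 14 were tested, 1 rose and 0 fell. The riser was Ednra, the endothelin receptor of smooth muscle, at -0.69 ± 0.21 in DOX+ and -2.26 ± 0.31 in DOX- cells (SD, n = 3). Its change of 1.57 (SE 0.21, adjusted p = 0.00922 in limma) passed in each of the 22 alternative settings run. The brightest others were Calm2, a gene for the calmodulin that activates MLCK, with a change of -0.08 (SE 0.18, adjusted p = 0.812), and Rhoa, a small GTPase of the actin cytoskeleton, with -0.13 (SE 0.13, adjusted p = 0.582).

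Markers of other cell types moved in the same samples, and their part in the changes of contractile genes was not tested. Of 14 pericyte and fibroblast markers 11 were tested, 0 rose and 1 fell, Thy1 (-1.65, SE 0.35, adjusted p = 0.0447). Thy1 changed by -0.41 with normexp (adjusted p = 0.148) and by -0.36 under spike-in scaling (adjusted p = 0.672), and its call was lost without the filter (adjusted p = 0.0881) and in 5 of 6 fits with an array left out, all but that without DOX- replicate 1. The mean level of the 11 was -0.06 to 0.17 in DOX+ and 0.51 to 0.61 in DOX- samples, and the pericyte markers Rgs5, Abcc9 and Kcnj8 were well above background on no array. The brightest others, Col1a1 and Col3a1, changed by 0.03 (SE 0.21, adjusted p = 0.936) and -1.02 (SE 0.57, adjusted p = 0.348, and 0.0126 with the replicate block). With the replicate block 2 rose and 5 fell. Of 16 cardiac markers 13 were tested and 2 fell, Tnnc1 and Hand2, with a mean level of -1.48 to -1.26 in DOX+ and -0.94 to -0.78 in DOX- samples. Tnnc1 changed by -1.58 (SE 0.29, adjusted p = 0.0276) and Hand2 by -1.35 (SE 0.26, adjusted p = 0.0334). The brightest others were Tnnt2 (-1.52, SE 0.81, adjusted p = 0.326) and Tnni1 (-0.94, SE 0.38, adjusted p = 0.215). Tnnt2 and Tnni1 passed with the replicate block (adjusted p = 0.00268 and 0.0149). Under spike-in scaling Tnnc1 changed by -0.29 and Hand2 by -0.05 (adjusted p = 0.733 and 0.95). Both calls were lost without the filter (adjusted p = 0.0602 and 0.0707) and in 5 of 6 fits with an array left out, all but that without DOX- replicate 3 for Tnnc1 and DOX+ replicate 1 for Hand2, and that of Hand2 with median centring (adjusted p = 0.0589). With the replicate block 6 fell. Myl7, an atrial light chain, was well above background on no array. Only 5 of 11 skeletal muscle markers were tested, and 0 passed, or 1 that rose with the replicate block. Their mean level was -0.66 to -0.29 in DOX+ and -0.69 to 0.07 in DOX- samples, and Myf5, Myog, Ckm, Myh3 and Mylpf were well above background on none. The brightest, Acta1 and Tnni2, changed by -0.49 (SE 0.31, adjusted p = 0.400) and -0.30 (SE 0.62, adjusted p = 0.800).

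Passing the brightness filter does not check the labelled cell type, as 14504 of the 20145 genes that could be named passed it. All 12 endothelial markers passed this filter. Among them 3 fell, Sox17 (-3.54, SE 0.58, adjusted p = 0.0182), Tek (-1.13, SE 0.24, adjusted p = 0.0414) and Eng (-0.92, SE 0.16, adjusted p = 0.0234), and 0 rose. Tek and Eng were above 0 under spike-in scaling (0.16 and 0.38) and did not pass with median centring (adjusted p = 0.0663 and 0.0730) or without the filter (0.0869 and 0.0590). Sox17 passed under scaling to the 4 brightest spike-in probes (-2.41, adjusted p = 0.0200). Under scaling to ranks 2 to 5 it changed by -2.25 (adjusted p = 0.0727, and 3.47e-07 with the replicate block). With an array left out Tek passed in 0 of 6 fits, Eng in 1, without DOX- replicate 1, and Sox17 in 3, those without DOX+ replicate 1, DOX+ replicate 3 or DOX- replicate 1. Egfl7 (-1.80, SE 0.52, adjusted p = 0.110) and Kdr (-0.34, SE 0.34, adjusted p = 0.582) were the brightest others. With the replicate block 7 fell, Egfl7 among them (adjusted p = 0.00372), and 1 rose. The 12 had a mean level of 0.45 to 2.39 in DOX+ and 1.99 to 3.43 in DOX- samples. Of 10 blood markers, all tested, 6 rose, and the 5 with the largest changes were Myb, Spn, Itgb3, Coro1a and Gfi1, at 3.37 to 4.79 (adjusted p = 0.00167 to 0.0145 in limma). Gfi1 did not pass without DOX+ replicate 2 or DOX- replicate 2 (adjusted p = 0.0587 and 0.0637). With the replicate block 7 rose. The brightest others were Kit (0.57, SE 0.74, adjusted p = 0.678) and Itga2b (0.63, SE 0.79, adjusted p = 0.666). The 10 had a mean level of 0.08 to 1.14 in DOX+ and -2.36 to -1.78 in DOX- samples.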

How the data were processed

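RNA was labelled with Cy3 and hybridised to 1-colour Agilent arrays. Scanner output of 8 arrays, made with Feature Extraction (10.7.3.1 per the file headers, 10.7.1.1 per the submitters' processing notes), was deposited by the authors as background-subtracted spot intensity with quality flags of 0 and 1. The deposited table of log2 values, of unstated normalization, was set against the scanner signals over 19751 spots. Its column medians were 5.36 to 5.38, its differences between arrays ran the same way as those of the signals, and its centring is unknown. Since 6 of its 8 columns tracked an array other than the one they were named for, it was not used further. Groups and replicate numbers came from the titles.

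Flagged outlier spots (114 to 246 per array) and controls were left out. Log2 processed signals were taken relative to the array's 75th percentile over 59305 spots, and spots of a probe averaged. RefSeq accessions named 26582 probes with 1 symbol, 0 with several and 29099 with none, through a table of GRCm38.p6. The array design is on mm9. A probe was kept if well above background on all replicates of a group (32811 probes), and each gene was represented by its brightest such probe (14504 genes). Limma 3.58.1 (R 4.3.3) was fitted over all genes, or over all probes where other probes of a gene are described, with Benjamini-Hochberg adjustment. This is the source of every SE and adjusted p. The code was tested on simulated data.

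Same-numbered DOX+ and DOX- samples deviated together from their group means (r = 0.65, 0.45 and 0.43, above those of other numbers), so the numbers were taken to pair the samples from the data, and the fit with a replicate block is given where it changes a call. P-values measure only the spread between these samples, which may be technical. The number of arrays limits precision.

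Members and lists were chosen with earlier results of these data known, and 2 listed genes are not reported here. Named genes were the members, those of each list past the threshold (at most 5) and its 2 brightest others, and the 5 genes most like the members. The tried alternatives were quantile, median and spike-in scaling, normexp on the median signal (no mean signal was used here), other filters, the replicate block, arrays left out, technical repeats added and all probes. Spike-in ranks 2 to 5, the block combined with another scaling or a pair left out, and the differences between Tpm1 probes were chosen after seeing the data.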

Additional observations from a re-analysis of the deposited data

How the results depend on the processing

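The count of contractile genes that passed was 0 in the fit without a block under quantile normalization, median centring, both spike-in scalings, both other filters, the technical repeats added to their groups and all probes, and 1 (Acta2) with normexp. It was 0 to 1 over single arrays left out, the 1 being Acta2 without DOX- replicate 1. With the replicate block it was 3, also with quantile normalization (3) and normexp (3), but 1 under median centring and 7 when scaled to spike-in ranks 2 to 5, and 0 to 1 without a pair. All genes that passed numbered 915, and 534 without a filter, 1584 with technical repeats, 378 to 824 without an array, 2346 with the replicate block, 2207, 2944, 12808 and 2543 with the block and quantile, median, spike-in or normexp settings, and 1158 to 2106 with the block and without a pair. Of these calls 65.7% were higher in DOX+, against 76.9% under median centring, 98.5% under scaling to the 4 brightest spike-in probes and 99.4% under scaling to ranks 2 to 5. Under these 3 scalings all genes had a median of 0.25, 1.22 and 1.38. The median change of the contractile genes was -0.53 to -0.05 without an array, 0.92 and 1.08 with spike-in scaling, and 1.08 with the block as well. Over the other lists 16 genes passed, 8 to 12 without an array, 10 with no filter, 10 and 9 with spike-in scaling, 37 with the replicate block, 35, 35, 81 and 35 with the block and quantile, median, spike-in or normexp settings, and 27, 25 and 36 with the block and without pair 1, 2 or 3.

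Signs turned with spike-in scaling to the 4 brightest probes for Acta2 (0.47), Actg2 (0.92), Myl9 (1.07), Tagln (0.79), Cnn1 (0.88), Cald1 (0.48), Tpm2 (1.00), Tpm1 probe A_55_P2187053 (1.07) and Eng (0.21). With ranks 2 to 5, with or without the replicate block, the values were 0.64, 1.08, 1.23, 0.96, 1.05, 0.64, 1.17, 1.24 and 0.38 in that order, and Tbx18 (0.11) and Tek (0.16) turned too. With median centring, in either fit, Myl9 (0.10), Tpm2 (0.03) and A_55_P2187053 (0.10) turned. Leaving out an array moved Actg2 between -0.75 and 0.44, Myl9 between -0.67 and 0.67, Mylk between -0.13 and 0.68, Cnn1 between -0.43 and 0.07 and A_55_P2187053 between -0.19 and 0.04. That probe read 0.09 with the technical repeats, and without the third pair in the blocked fit it read 0.07 and Myl9 0.06. The cause was not tested. A slide block was not run, as there was 1 slide.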
